A study of Mus musculus with 12 samples.

Results

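The nuclear genes that encode subunits of the mitochondrial respiratory chain and of ATP synthase were described in liver RNA of mice on 2 diets, measured with 2 library kits. The genes were chosen by symbol alone, as protein-coding genes named Nduf with a subunit letter and a number, Sdha to Sdhd, Uqcr, Cyc1, Cycs, Cox4 to Cox8 or Atp5, a rule that uses no measured value. They were 84 of the 27022 genes counted, with 35 in complex I, 4 in complex II, 9 in complex III, 1 for cytochrome c, 18 in complex IV and 17 in complex V. Ndufa4 and its paralog Ndufa4l2 were placed in complex IV, where NDUFA4 resides, Cox7a2l stood with complex IV although it acts in joining complexes, and Atp5s, which encodes a coupling factor, stood with complex V.

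The RNA came from 6 female SJL/J mice that had been on an AIN-93G control diet with 50 ppm iron since 3 weeks of age. 3 mice stayed on this diet (control) and 3 changed at 6 weeks to AIN-93G with 2% carbonyl iron (iron-loaded), until livers were taken at 11 weeks after a morning fast and perfusion. Each RNA went into a Trad-KAPA library, which samples whole transcripts, and a 3’-LEXO library, which samples the 3′ end, giving 12 libraries with 3 mice per diet and kit. With 1 cage for each diet, an effect of the cage cannot be told apart from that of the diet.

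The respiratory chain passes electrons from NADH (complex I) and succinate (complex II) through complex III and cytochrome c to oxygen at complex IV, and ATP synthase (complex V) uses the resulting proton gradient to make ATP. The electrons travel over iron-sulfur clusters, hemes, flavins and copper centers, so that part of the chain is built around iron. Most subunits are nuclear-encoded and imported, while a small set is encoded in mitochondrial DNA. Hepatocytes are rich in mitochondria and are also the main iron store of the liver. Of the nuclear-encoded subunits counted here, 7 hold iron-sulfur clusters (Ndufs1, Ndufs7, Ndufs8, Ndufv1, Ndufv2, Sdhb and Uqcrfs1), and 4 bind heme (Sdhc and Sdhd, which share a heme b, and Cyc1 and Cycs, which carry heme c).

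Library totals ranged from 10724672 to 16553616 counts, and 3 counts, taken as the floor, stood for at most 0.280 CPM, the count per 1000000 counts of the library. CPM values below use library totals scaled by edgeR's TMM factors. The iron response checked the labels: Bmp6, a signal of iron stores, rose in Trad-KAPA from 3.45 ± 0.386 to 18.6 ± 2.76 CPM (SD, n = 3; edgeR adjusted p = 0.000505). Hamp, which encodes the iron hormone hepcidin, was at 44.5 to 515.0 CPM in control livers and 1034 to 1245 in iron-loaded ones in Trad-KAPA (adjusted p = 0.0667). The 6 hepatocyte markers summed to at least 42939 CPM in every library, and muscle and brown fat markers (such as Ckm and Ucp1) summed to at most 0.182 CPM per list. Iron-loaded mouse 1 stood apart from the other mice of its diet in both kits. Its chi-square per degree of freedom against them was 49.5 to 59.8, where iron-loaded mice 2 and 3 differed from each other by 5.97 and 5.98. Control mice differed from each other by 18.5 to 19.9 in Trad-KAPA and by 25.8 to 35.9 in 3’-LEXO. Where a printed value turned on it, the value without it or the value of each mouse is given below.

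The start regions of some of these genes are shown first, since many of them share short sequence elements of factors that are known to drive mitochondrial genes. RefSeq start regions of GRCm38.p6, 250 bases before to 50 after the annotated start, were matched for 68 of the 84 genes and searched on both strands for 6 motifs. The NRF1 core GCGCATGC was in 16.2% of them (11 genes) and in 3.05% of the 27025 genes with such a region. The ETS core CCGGAAG, read by GABP, was in 23.5% against 9.93%, and the YY1 core AAGATGGC in 14.7% against 3.19%. The ERR half-site TGACCTT was in 11.8% against 5.38%, the GC box GGGCGG in 41.2% against 38.2%, and the TATA box TATAAA in 8.82% against 15.7%. The NRF1 core GCGCATGC overlaps its own reverse complement in the palindrome GCGCATGCGC. These are descriptions without a test, and GC content was also higher here, with a median of 58.3% against 52.8%. The 6 windows below run 5′ to 3′ from 130 bases before the start to 30 from it on, with the NRF1, ETS and YY1 cores in capitals on either strand. They were chosen because Atp5k, Atp5e, Ndufa11 and Sdha return below among the genes with a diet effect, and Sdhb and Cycs as an iron-sulfur and a heme protein. The other iron-sulfur and heme genes with a matched region were Ndufs7, Ndufs8, Ndufv1, Ndufv2, Uqcrfs1 and Sdhd. None of these held an NRF1 core, so the windows of Sdhb and Cycs are not typical of such subunits. The call of Ndufa11 was present in 3 of 12 alternative fits. Of the 68 genes, 16 were called in Trad-KAPA. The NRF1, ETS and YY1 cores were in 3, 5 and 3 of these 16, and in 11, 16 and 10 of the 68. A link between a core and the diet effect was not tested.
Atp5k (chr5:108434370-108434529, minus strand): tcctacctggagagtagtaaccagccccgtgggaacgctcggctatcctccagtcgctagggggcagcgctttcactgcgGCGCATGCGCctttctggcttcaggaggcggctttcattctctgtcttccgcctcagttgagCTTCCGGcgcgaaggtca
Atp5e (chr2:174464072-174464231, minus strand): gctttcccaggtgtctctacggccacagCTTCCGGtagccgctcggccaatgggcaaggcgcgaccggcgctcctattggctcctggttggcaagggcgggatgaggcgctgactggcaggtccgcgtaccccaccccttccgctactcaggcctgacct
Ndufa11 (chr17:56717632-56717791, plus strand): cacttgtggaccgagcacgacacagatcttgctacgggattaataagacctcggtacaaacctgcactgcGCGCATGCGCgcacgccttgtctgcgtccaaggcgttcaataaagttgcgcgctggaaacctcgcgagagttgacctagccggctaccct
Sdhb (chr4:140961141-140961300, plus strand): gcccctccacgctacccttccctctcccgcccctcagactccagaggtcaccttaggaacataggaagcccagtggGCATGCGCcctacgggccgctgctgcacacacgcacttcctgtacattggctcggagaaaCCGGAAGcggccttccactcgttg
Cycs (chr6:50566540-50566699, minus strand): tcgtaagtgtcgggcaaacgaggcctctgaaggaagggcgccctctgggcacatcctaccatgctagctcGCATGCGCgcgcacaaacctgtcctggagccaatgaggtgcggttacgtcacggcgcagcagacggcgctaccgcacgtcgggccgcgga
Sdha (chr13:74350211-74350370, minus strand): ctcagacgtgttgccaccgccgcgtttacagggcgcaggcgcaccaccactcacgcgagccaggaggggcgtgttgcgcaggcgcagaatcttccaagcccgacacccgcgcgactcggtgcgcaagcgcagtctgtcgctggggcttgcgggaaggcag
In Atp5k and Ndufa11 the NRF1 palindrome began 50 and 60 bases before the start, in Sdhb and Cycs a single NRF1 core began 54 and 60 bases before it, and Sdha held none of these 3 cores.

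Levels were compared between genes per length in Trad-KAPA, as CPM per kb of merged exon (RPKM below), over the 3 control mice. The median over the 84 genes was 39.4 RPKM, and 70 of the 79 genes with enough reads to test lay above 3.22 RPKM, the median of the 13139 genes tested that have a length. The 2 highest were the catalytic core of ATP synthase: Atp5a1, the alpha subunit, at 316 ± 16.5 RPKM (SD, n = 3) and Atp5b, the beta subunit, at 251 ± 13.5. Medians by complex ran from 97.9 RPKM in complex II and 77.5 in complex III to 37.3 in complex V, 30.0 in complex I and 19.5 in complex IV, whose 18 genes include isoforms of other tissues. With the longest transcript as length the same medians were 149, 92.9, 74.1, 44.2 and 30.3.

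Within complex I the levels ran from Ndufb2, an accessory subunit, at 2.66 ± 0.380 RPKM to Ndufb9, another, at 113 ± 7.20. The value of Ndufb2 rests on a merged exon length of 5628 bases. In 3’-LEXO, where levels are not divided by length, Ndufb2 was at 96.7, 118 and 132 CPM in control mice. The complex I median there was 131 CPM. In complex II the membrane anchors were the lowest and the highest, Sdhc at 43.7 ± 2.94 and Sdhd at 143 ± 7.55. The Rieske iron-sulfur protein Uqcrfs1 was the highest of complex III at 123 ± 8.41, and Uqcrb, a small accessory subunit, the lowest at 20.0 ± 5.65. Cycs, the somatic cytochrome c, was listed at only 0.840 ± 0.119 RPKM. Of the 50-base windows of its principal transcript, 28.5% also occur in a transcript of another locus, and only uniquely mapped reads were counted. The same held for 20% or more of the windows of 12 testable genes, which had a median of 5.99 RPKM against 45.7 for the other 68. The highest shares were 87.4% for Atp5g2, 68.5% for Atp5l and 53.0% for Cox7c, so the levels of these genes are uncertain. In the last 400 bases of Cycs the share was 0%. Its mean in 3’-LEXO control mice was 12.1 CPM, where the median of the 84 genes was 186. The cause of its low level was not tested. Atp5g1, the lowest of complex V at 0.355 ± 0.126 RPKM, and Atp5g2 encode the same c-ring subunit as Atp5g3, which was at 109 ± 5.34.

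The iron-sulfur subunits had a median of 45.9 RPKM (14.6 for Ndufs1 to 123 for Uqcrfs1), and the heme subunits 57.6 (0.840 for Cycs to 143 for Sdhd). Both medians lay above the 39.4 of all 84 genes, which include tissue isoforms with hardly any reads. The median was 42.7 over the 79 tested genes, and 45.7 over the 68 testable genes with under 20% of their windows elsewhere. No difference was tested.

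**Figure D1:**
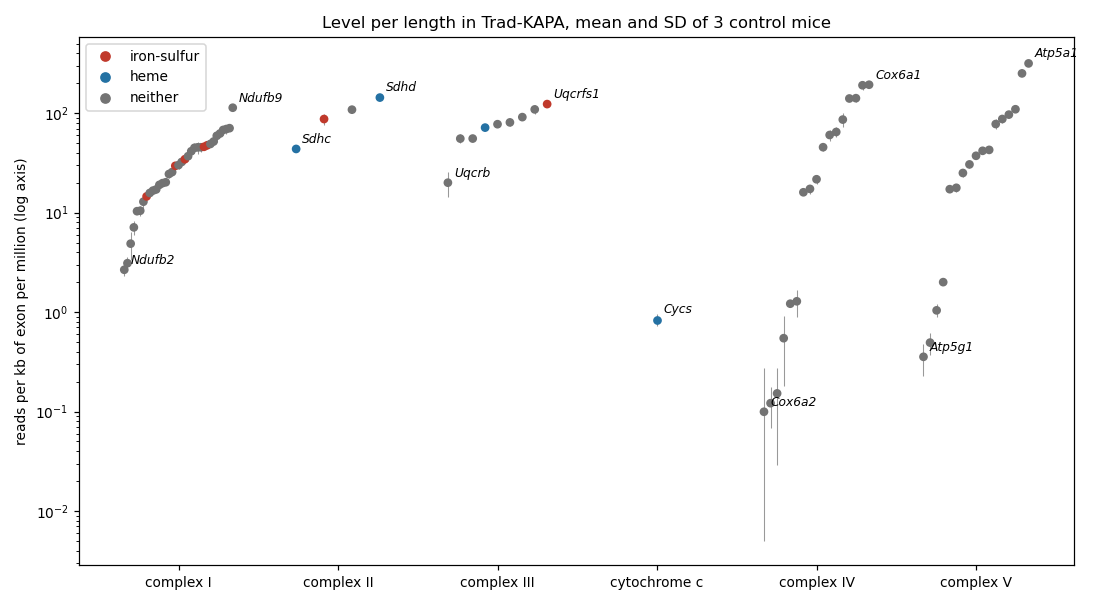
Level of each gene in Trad-KAPA by complex, in CPM per kb of merged exon on a log axis, as mean and SD of the 3 control mice, with lower bars cut short of 0 and Cox8b, without reads, not drawn. Atp5a1 is the highest at 316, the median of all 84 is 39.4, and among the lowest are Cycs at 0.840 and Atp5g1 at 0.355.

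Complex IV has isoforms that differ between tissues, and the liver libraries held the ubiquitous ones. Cox4i1 was at 140 ± 6.11 RPKM, Cox6a1 at 193 ± 13.99, Cox6b1 at 191 ± 20.5, Cox8a at 141 ± 11.8, Cox7a2 at 60.3 ± 7.84, Cox7b at 64.7 ± 7.78 and Ndufa4 at 86.2 ± 13.6. Cox7a2l was lower, at 16.0 ± 0.625. The lung isoform Cox4i2 had at most 3 reads in any library, and the heart and muscle isoform Cox8b had 1 read in 1 of the 12. The testis isoform Cox6b2 had at most 10 reads. Cox8c and Cox7b2 were not analysed here. Ndufa4l2, the paralog induced by hypoxia, was at 1.21 ± 0.0494 RPKM, and its fitted log2 change was 0.36 by Trad-KAPA and -0.04 by 3’-LEXO, neither called (adjusted p = 0.433 and 0.956). Cox6a2, the heart and muscle isoform of Cox6a1, had at most 7 reads in every library except those of iron-loaded mouse 1, which had 12 (Trad-KAPA) and 40 (3’-LEXO).

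As a share of all counts, without TMM scaling, the 84 genes were lower on the iron-loaded diet in both kits. In Trad-KAPA they took 0.823%, 0.762% and 0.818% of the counts in control mice 1, 2 and 3 and 0.667%, 0.663% and 0.686% in iron-loaded mice 1, 2 and 3. In 3’-LEXO the shares were 2.30%, 2.37% and 2.39% against 2.16%, 2.00% and 2.13%. The groups did not overlap in either kit, and the mean share changed by -16.1% and -11.0%. In bulk liver, fewer cells of a type and less RNA per cell cannot be told apart. By complex, the change in Trad-KAPA was -16.01% for complex I, -23.3% for II, -15.7% for III, -11.1% for IV and -15.8% for V, without overlap in each. For 3’-LEXO these changes were -11.4%, -13.6%, -8.71%, -3.80% and -14.5%, and the groups overlapped for complex IV only. The share of cytochrome c overlapped between the diets in both kits.

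**Figure D2:**
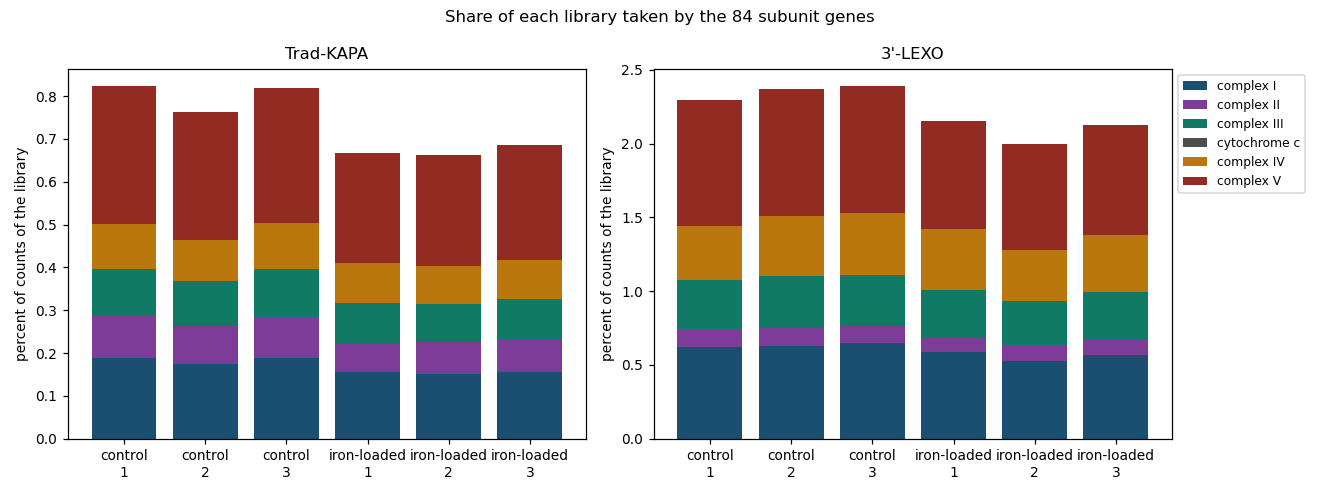
Percent of all counts of each library that fell on the 84 genes, stacked by complex, for the 3 control and 3 iron-loaded mice in each kit (left and right panels have different axes). The iron-loaded bars reach 0.663 to 0.686% in Trad-KAPA and 2.00 to 2.16% in 3’-LEXO, below every control bar.

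Gene by gene, respiratory chain transcripts were lower on the iron-loaded diet in Trad-KAPA. Of 79 genes tested there, 20 fell and 0 rose (edgeR quasi-likelihood test, Benjamini-Hochberg adjusted p under 0.05 over 13151 genes). The background was 8.37% of all genes for a fall, against 25.3% of these genes, and 8.77% for a rise. DESeq2 called 20, all lower (background 8.21%). At an unadjusted p under 0.05, 45 genes were lower (background 16.8%) and 1 higher. The fitted change was below 0 for 73 of 79, against 48.5% of all genes, and its median was -0.31 on the log2 scale, where that of all genes was 0.02. In 57 of the 79, all 3 iron-loaded mice lay below all 3 controls, against 21.1% of all genes, and in 2 they lay above (20.7% of all genes).

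The 20 genes that fell were spread over the complexes. In complex I 11 of 35 fell, among them the core subunits Ndufs3, Ndufs8 and Ndufv1 and the accessory subunits Ndufa3, Ndufa9, Ndufa11, Ndufa13, Ndufb7, Ndufb8 and Ndufb9. In complex II Sdha and Sdhc fell, in complex III Cyc1 and Uqcrc1, in complex IV Cox5a and Cox5b, and in complex V Atp5c1, Atp5e and Atp5k. The median change was -0.36 in complex I, -0.39 in II, -0.33 in III, -0.22 in IV and -0.29 in V. No complex was tested against another. Cox5b and Ndufs3 are among the 12 genes with copies elsewhere, and 9 of the 20 share exon bases with another gene. The least stable calls were those of Ndufs3, present in 2 of 12 alternative fits, and of Ndufa9, Ndufa11 and Cox5a, present in 3 each. Genes followed below lie, in GRCm38 coordinates, at chr19:44548572-44555440 (Ndufb8), chr19:3908863-3912774 (Ndufs8), chr1:171127165-171150603 (Sdhc), chr9:50596357-50603812 (Sdhd), chr15:76343523-76346260 (Cyc1) and chr13:74322254-74350280 (Sdha).

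In 3’-LEXO, from the same 6 livers, 2 of 80 genes tested were called lower, Atp5e and Cox7a1 (the latter through few reads, described below), and 0 rose (edgeR adjusted p under 0.05 over 13301 genes). The share that fell was near the background of 2.92% of all genes, where 3.17% rose. At an unadjusted p under 0.05, 22 of the 80 were lower (background 12%) and 2 higher, and DESeq2 called 8, all lower (background 4.52%). The median change was -0.21 against 0.01 for all genes, 63 of 80 values were below 0 (48.7% of all genes), and in 31 the iron-loaded mice all lay below the controls (15.6% of all genes), and in 3 above (15.9%). By complex the medians were -0.23 in I, -0.33 in II, -0.22 in III, -0.07 in IV and -0.20 in V. Both kits measured the same mice and are not independent.

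**Figure D3:**
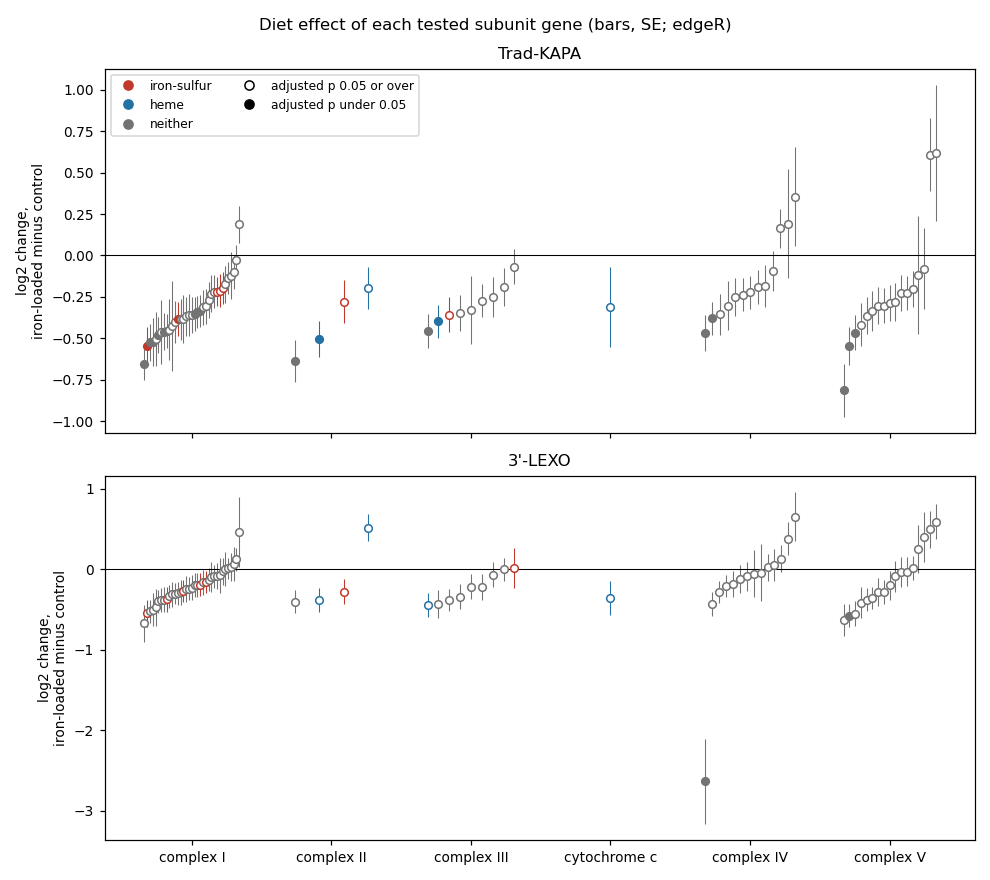
Log2 change from control to iron-loaded diet of each tested gene, with its SE from edgeR, by complex, in Trad-KAPA (top, 79 genes) and 3’-LEXO (bottom, 80 genes, wider axis), each n = 3 against 3. Filled points passed adjusted p under 0.05: 20 in Trad-KAPA, all below 0, and 2 in 3’-LEXO, Atp5e and, at -2.63, Cox7a1.

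The iron-sulfur subunits were all below 0 in Trad-KAPA, as were 73 of the 79 respiratory chain genes tested and 48.5% of all genes. Of the 7, 2 fell (28.6%), against 25.3% of the 79 and 8.37% of all genes. Ndufs8, which carries clusters of the complex I arm that faces the matrix, was at 58.6, 58.9 and 60.2 CPM in control mice and 36.0, 45.9 and 40.0 in iron-loaded ones, a change of -31.5% (log2 change -0.54, SE 0.11, adjusted p = 0.0165). Its 3’-LEXO values were 82.1, 83.0 and 71.1 against 42.5, 61.2 and 57.8, with a log2 change of -0.55 (adjusted p = 0.0813). Its groups did not overlap in either kit.

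Ndufv1, the subunit that binds NADH and FMN, had 131, 115 and 130 CPM in control mice and 99.6, 94.6 and 93.5 in iron-loaded ones in Trad-KAPA (log2 change -0.39, SE 0.10, adjusted p = 0.0354), and a change of -0.38 in 3’-LEXO (adjusted p = 0.166). The Trad-KAPA call was present in 4 of 12 alternatives for Ndufv1 and in 8 for Ndufs8. Ndufs1, Ndufs7 and Ndufv2, which hold further clusters of complex I, had changes of -0.20, -0.22 and -0.21 by Trad-KAPA, against -0.19, -0.16 and -0.27 by 3’-LEXO, none called. Sdhb, which holds the clusters of complex II, had -0.28 in both kits (adjusted p = 0.170 and 0.307). Its groups overlapped in Trad-KAPA and not in 3’-LEXO.

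Uqcrfs1 differed more between the kits. In Trad-KAPA it was at 162, 161 and 181 CPM in control mice and 140, 125 and 128 in iron-loaded mice (log2 change -0.36, adjusted p = 0.0512). In 3’-LEXO it was at 355, 538 and 472 against 626, 330 and 421, with a change of 0.01 and an SE of 0.25. Its highest and its lowest 3’-LEXO value were both from iron-loaded mice. Without iron-loaded mouse 1 the change in 3’-LEXO was -0.28 (edgeR adjusted p = 0.428), and in Trad-KAPA it was then -0.40 and called (adjusted p = 0.0178).

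The median of the 7 iron-sulfur subunits was -0.28 (Trad-KAPA) and -0.27 (3’-LEXO), and that of the genes with neither cofactor was -0.30 (68 tested) and -0.20 (69 tested). The 4 heme subunits had medians of -0.36 and -0.37. No difference between these groups was tested.

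Of the 4 heme subunits, Cyc1 and Sdhc fell in Trad-KAPA, where 25.3% of the 79 respiratory chain genes and 8.37% of all genes fell. The call of Cyc1 was present in 4 of 12 alternatives and that of Sdhc in 8. Cyc1, cytochrome c1 of complex III, was at 154, 145 and 164 CPM against 123, 111 and 116.8, a change of -24.1% (log2 change -0.40, SE 0.10, adjusted p = 0.0322). By 3’-LEXO, Cyc1 was at 202, 157 and 187 against 137, 131 and 131 (log2 change -0.45, adjusted p = 0.0964). Sdhc was at 136, 137 and 153 against 90.7, 105 and 104, a change of -29.6% (log2 change -0.51, SE 0.11, adjusted p = 0.0197), and had a change of -0.38 in 3’-LEXO (adjusted p = 0.143). The iron-loaded values of both genes were below all controls in both kits.

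Cycs had few reads, and its changes of -0.31 (SE 0.24) and -0.36 (SE 0.21) did not pass (adjusted p = 0.392 and 0.311). Its groups overlapped in both kits.

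Sdhd, the partner of Sdhc, had values on opposite sides of the controls in the 2 kits. In Trad-KAPA it was at 169, 173 and 187 CPM in control and 130, 164 and 169 in iron-loaded mice, each of these below the lowest control (log2 change -0.19, SE 0.13, adjusted p = 0.313). In 3’-LEXO it was at 79.6, 66.6 and 99.4 against 114, 108 and 129, each above the highest control (log2 change 0.52, SE 0.17, adjusted p = 0.101). The difference between the kits in the diet effect was 0.71 on the log2 scale (SE 0.22, unadjusted p = 0.00685, edgeR adjusted p = 1.0), and neither effect was called.

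The catalytic flavoprotein of complex II, Sdha, was at 442, 417 and 483 CPM in control and 252, 303 and 309 in iron-loaded mice in Trad-KAPA, a change of -35.7% (log2 change -0.64, SE 0.13, adjusted p = 0.0152). By 3’-LEXO, Sdha was at 262, 252 and 272 against 176, 207 and 211 (log2 change -0.41, adjusted p = 0.119). The groups did not overlap in either kit.

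Ndufb8, an accessory subunit of the membrane arm, was called in Trad-KAPA under each of the 12 alternatives run. It was at 65.3, 61.0 and 64.3 CPM in control and 38.4, 42.8 and 39.6 in iron-loaded mice, a change of -36.6% (log2 change -0.66, SE 0.09, adjusted p = 0.00579). By 3’-LEXO, Ndufb8 was at 711, 500.1 and 693 against 279, 475 and 440, again without overlap but with a wider spread (log2 change -0.67, SE 0.23, adjusted p = 0.106). Ndufb9, with the highest level of complex I, changed by -30.5% in Trad-KAPA (log2 change -0.52, SE 0.11, adjusted p = 0.0193) and had a change of -0.31 in 3’-LEXO (adjusted p = 0.252). Ndufb8 and Ndufb9 each overlap an exon of another gene on the same strand, by 134 and 201 bases, so that some reads may belong to those.

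Atp5k, the small e subunit of ATP synthase that helps its dimers form, had the largest fall of the 20. It was at 48.4, 42.3 and 53.0 CPM in control and 21.3, 31.2 and 29.1 in iron-loaded mice, a change of -43.2% (log2 change -0.81, SE 0.16, adjusted p = 0.0139). By 3’-LEXO, Atp5k was at 665, 655 and 647 against 301, 502 and 465 (log2 change -0.63, SE 0.20, adjusted p = 0.0898). Iron-loaded mouse 1 was the lowest in both kits, and the other iron-loaded mice were also below every control.

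Atp5e, the epsilon subunit of the ATP synthase stalk, was the 1 gene called in both kits. In Trad-KAPA it was at 71.6, 70.4 and 78.3 CPM against 44.0, 55.3 and 51.5, a change of -31.5% (log2 change -0.55, SE 0.11, adjusted p = 0.0179). The 3’-LEXO values were 315, 340.2 and 317 against 202, 221 and 229, a change of -33.0% (log2 change -0.58, SE 0.14, adjusted p = 0.0431). Each iron-loaded value was well below every control value. Its 3’-LEXO call was lost in every fit that left out 1 library.

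The alpha subunit Atp5a1, with the highest level per length of all in Trad-KAPA, was not called. It was at 994, 939 and 1042 CPM against 712, 823 and 822 in Trad-KAPA (log2 change -0.34, adjusted p = 0.0901), and at 781, 834 and 914 against 974, 677 and 826 in 3’-LEXO (log2 change -0.03, adjusted p = 0.939). In 3’-LEXO the change of Atp5a1 turned sign without TMM (0.034), without control mouse 3 (0.024) and without iron-loaded mouse 2 (0.080). The only genes above 0.5 on the log2 scale in Trad-KAPA were Atp5s at 0.61 (adjusted p = 0.0893) and Atp5g2 at 0.62 (adjusted p = 0.317), named here after their values were seen. Atp5g2 had 14, 15 and 8 reads in control and 28, 11 and 17 in iron-loaded mice, which overlap, with mouse 1 the highest. Atp5s was at 4.35, 3.79 and 4.09 CPM in control and 8.11, 5.57 and 4.97 in iron-loaded mice. Atp5s had 0.59 in 3’-LEXO (adjusted p = 0.132), and its iron-loaded mice lay above all controls in both kits.

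**Figure D4:**
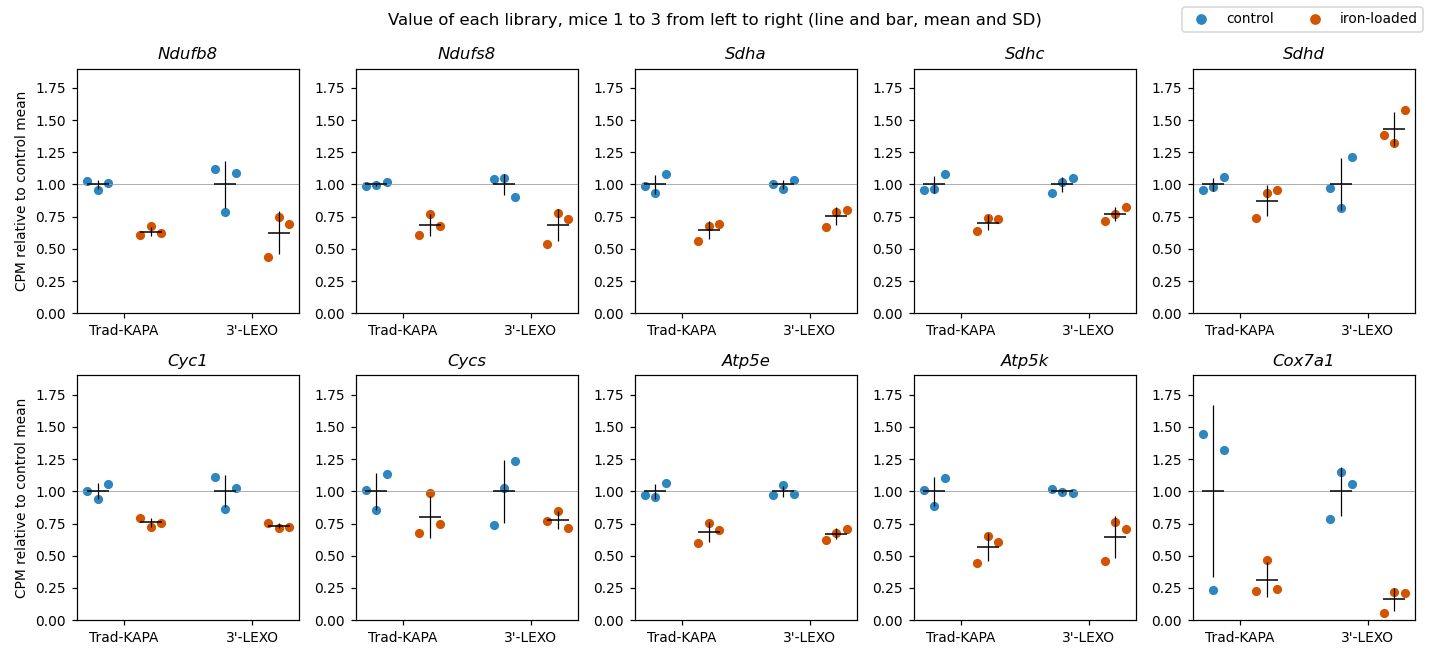
CPM of each library divided by the control mean of its kit for 10 genes, with mice 1 to 3 from left to right, and the mean and SD of the 3. Iron-loaded points (orange) lie below all control points (blue) in both kits for Ndufb8, Ndufs8, Sdha, Sdhc, Cyc1, Atp5e and Atp5k, overlap them for Cycs, and for Sdhd lie below in Trad-KAPA and above in 3’-LEXO.

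Cox7a1, the heart and muscle isoform of Cox7a2, was called lower in 3’-LEXO at a low level. It had 14, 21 and 18 reads in control mice and 1, 3 and 3 in iron-loaded mice. It passed the filter on low counts only through the control mice, so its test and call are no support for a diet effect of these genes. The ratio of iron-loaded to control was 0.153, with an exact 95% interval from 0.0588 to 0.338 that covers counting error only (edgeR log2 change -2.63, SE 0.53, adjusted p = 0.0216). Of the fits that left out 1 library, those without iron-loaded mouse 1 or 2 still called it. In Trad-KAPA it had 7, 1 and 5 reads against 1, 2 and 1 and was not tested, and the ratio of 0.313 had an interval from 0.0743 to 1.01. Its liver-type counterpart Cox7a2 had changes of -0.09 and 0.02. The other ubiquitous isoforms of complex IV had changes from -0.30 (Ndufa4) to 0.16 (Cox7a2l) in Trad-KAPA and from -0.28 (Cox6a1) to 0.38 (Cox7a2l) in 3’-LEXO, none called. Without iron-loaded mouse 1 the change of Cox7a2l was 0.07 and 0.11. In 3’-LEXO that of Cox6b1 was 0.06 and that of Cox8a -0.09, and both turned sign when some single libraries were left out, within -0.06 to 0.20 and -0.20 to 0.02.

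How many genes fell depended on single libraries. In Trad-KAPA, 4, 8 and 1 genes were called without control mouse 1, 2 and 3 (background for a fall 4.16%, 3.18% and 3.54%), and 22, 5 and 5 without iron-loaded mouse 1, 2 and 3 (10.1%, 4.23% and 3.93%), all lower. Ndufb8 was in each of these sets, and Sdha and Atp5k in all but that without control mouse 3. For 3’-LEXO, edgeR called 0 genes without control mouse 1, 2 or 3 or iron-loaded mouse 3 (background 1.33%, 1.02%, 0.751% and 1.14%). Without iron-loaded mouse 1 it called Cox7a1 (3.07%), and without iron-loaded mouse 2 Cox7a1 and, higher, Cox7c (2.57% for a fall). With library totals in place of TMM factors, 13 genes were called in Trad-KAPA (background 6.37%) and 1 in 3’-LEXO (2.63%), and the Trad-KAPA split of all genes moved from 1101 lower of 2255 called to 838 lower of 2177. Without the filter on low counts, 10 genes were called in 3’-LEXO, of which 8 fell (4.46%).

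Relative to the mean of the controls, the median of these genes in Trad-KAPA was -0.38, -0.26 and -0.27 on the log2 scale for iron-loaded mice 1, 2 and 3, and -0.01, -0.10 and 0.10 for control mice 1, 2 and 3. The 3’-LEXO medians were -0.22, -0.29 and -0.18, and -0.07, -0.0043 and 0.08. Every iron-loaded mouse had a lower median than every control mouse in both kits.

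No difference between the kits in the diet effect was called for any of these genes. Over the 12 libraries, the interaction of diet and kit was called for 0 of 80 genes tested (edgeR, and likewise 0 by DESeq2), and for 0 of 14384 genes in all (0% called). Both kits used the same RNA of each mouse, but the mouse was not a term in this fit, which also gave the p of Sdhd. The fit was also run on simulated counts, with the same spread for all genes, no mouse shared between libraries and changes only in well-counted genes. Recovery in the real libraries may therefore differ. On the simulated counts the fit recovered 38% of 0.5-fold and 56% of 2-fold differences. It recovered 10% of 0.667-fold and 8% of 1.5-fold differences, so differences of this size could be missed. At an unadjusted p under 0.05 there was 1 of the 80, Sdhd, and 2.79% of all genes.

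Other genes of mitochondrial metabolism were described by the same counts, with no test against the respiratory chain genes. Of 48 assembly factors tested, which build the complexes or insert their cofactors, 5 were lower and 3 higher in Trad-KAPA, and 1 was lower and 1 higher in 3’-LEXO. The 10.4% lower in Trad-KAPA and the 2.08% lower in 3’-LEXO were near the background of 8.37% and 2.92%. For a rise the background was 8.77% and 3.17% of all genes. Called in both kits were Sco2, a copper chaperone of complex IV, which fell by 0.99 and 0.88 on the log2 scale (adjusted p = 0.00720 and 0.00943), and Ndufaf4, a complex I factor, which rose by 0.81 and 0.70 (adjusted p = 0.0194 and 0.0448). The medians of the list were -0.19 and -0.11. Of 13 citric acid cycle enzymes, Idh3b and Suclg1 fell in Trad-KAPA and 0 were called in 3’-LEXO, with medians of -0.18 and -0.10. The 2 enzymes were 15.4% of the list, against 8.37% of all genes, and this difference was not tested. Of 12 regulators of mitochondrial biogenesis, Pprc1, a coactivator, rose in Trad-KAPA (background 8.77%) and 0 were called in 3’-LEXO, with medians of 0.10 and 0.06. Of the mitochondrially encoded subunits, 7 were tested in Trad-KAPA and 0 called, with a median of -0.34. Without overlap, 5 of the 7 were lower (71.4%, against 21.1% of all genes). An unadjusted p under 0.05 was found for 2, both lower (background 16.8%). In 3’-LEXO 8 were tested, with a median of -0.23, and mt-Nd6 fell (12.5%, against 2.92% of all genes). Each of mt-Co2, mt-Co3 and mt-Atp6 was listed near 0, so this list is incomplete.

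Marker sums of some other liver cells differed between the diets as well, and not every marker of a list moved alike. The 6 Kupffer cell markers summed to 319 to 477 CPM in control and 538 to 550.0 in iron-loaded mice in Trad-KAPA. In 3’-LEXO their sums overlapped, at 879 to 1088 and 1079 to 1256. Their log2 changes ran from 0.08 to 3.10 in Trad-KAPA (median 0.34), with 2 called higher (background 8.77%). In 3’-LEXO they ran from -0.31 to 2.82 (median 0.15), with 1 below 0 and 1 called higher (background 3.17%). The 4 neutrophil markers summed to 1.24 to 2.30 and 3.28 to 6.68 in Trad-KAPA and to 8.39 to 17.6 and 23.9 to 56.9 in 3’-LEXO. The sums of the 6 hepatocyte markers overlapped between the diets, at 144516 to 166466 and 109201 to 153332 in Trad-KAPA. The 3’-LEXO sums, at 56289 to 69123 and 42939 to 64667, overlapped too. The fitted change was below 0 for 5 of these 6 markers by Trad-KAPA and above 0 for 1. By 3’-LEXO, 4 were below 0 and 2 above. Their median log2 changes were -0.24 (Trad-KAPA) and -0.29 (3’-LEXO), beside -0.31 and -0.21 for the respiratory chain genes. Only Ass1 was called, lower under each kit (edgeR adjusted p = 0.0346 and 0.0395). For sinusoidal endothelial and stellate cells the sums overlapped in Trad-KAPA, but in 3’-LEXO they were at 297 to 346 and 446 to 484 in control mice and at 237 to 246 and 400.2 to 424 in iron-loaded mice. Of the 5 endothelial markers, 1 was called higher in each kit (background 8.77% and 3.17%). In 3’-LEXO 1 endothelial marker was called lower. The 6 stellate markers were all below 0 in 3’-LEXO, and 4 of them were in Trad-KAPA. The cholangiocyte sums were lower in both kits, at 6.04 to 6.87 and 4.68 to 5.82 in Trad-KAPA and 12.9 to 15.9 and 9.81 to 11.4 in 3’-LEXO. Only 2 of these 4 markers were tested in each kit, 1 with a change below 0 and 1 above. The T cell sums overlapped in Trad-KAPA and were at 1.69 to 2.47 and 2.64 to 2.97 in 3’-LEXO, and those of B cells overlapped in both kits. The red cell sums overlapped in both kits, at 17.0 to 142 and 13.2 to 25.3 in Trad-KAPA, and the 3 markers had median log2 changes of -1.80 and -1.92, with 0 called by edgeR and an unadjusted p under 0.05 for all 3 in each kit. The part of these shifts in the results was not tested. No list except muscle and brown fat had a marker at 0 in every library.

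The kits also differed from each other over the same 6 mice. Of 80 genes tested, 67 were higher in 3’-LEXO and 8 higher in Trad-KAPA in TMM-scaled CPM (edgeR adjusted p under 0.05, background 38.8% and 37.6% of 14384 genes). The median was 1.60 on the log2 scale, or 3.03-fold higher in 3’-LEXO. A whole-transcript library yields fragments along the transcript and a 3′ library a tag at its end. For 18 genes under 1000 bases of merged exon the median was 2.33, for 31 of 1000 to under 2000 bases 2.01 and for 31 of 2000 and more 0.96. Across the 80 genes, which share libraries and are not independent, Spearman’s rho between length and the kit difference was -0.35, and over 14368 genes -0.29.

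The largest differences in favor of 3’-LEXO were in Cox7c at 4.83 (28.4-fold), Ndufa1, the small MWFE subunit of complex I, at 4.14 (17.6-fold), and Atp5g3 at 3.98 (15.8-fold). Atp5g3 was also the most abundant gene of the set in 3’-LEXO, at 3691, 3617 and 3978 CPM in control mice against 228, 237 and 251 in Trad-KAPA. Ndufs3 (-1.72, 3.28-fold higher in Trad-KAPA), Cox5b (-1.01, 2.01-fold) and Sdhd (-0.75, 1.68-fold) were the furthest the other way. Of these, Ndufs3 shares 64.7% of the 50-base windows in its last 400 bases with other loci, Cox7c 74.1% and Cox5b 0%. The iron-sulfur subunits had a median kit difference of 0.47 and the heme subunits of 0.92, with merged exons of a median 2147 and 2702 bases against 1578 over all 84. Over the 80 genes, the level per length in Trad-KAPA and the level in 3’-LEXO ranked alike with a rho of 0.70.

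**Figure D5:**
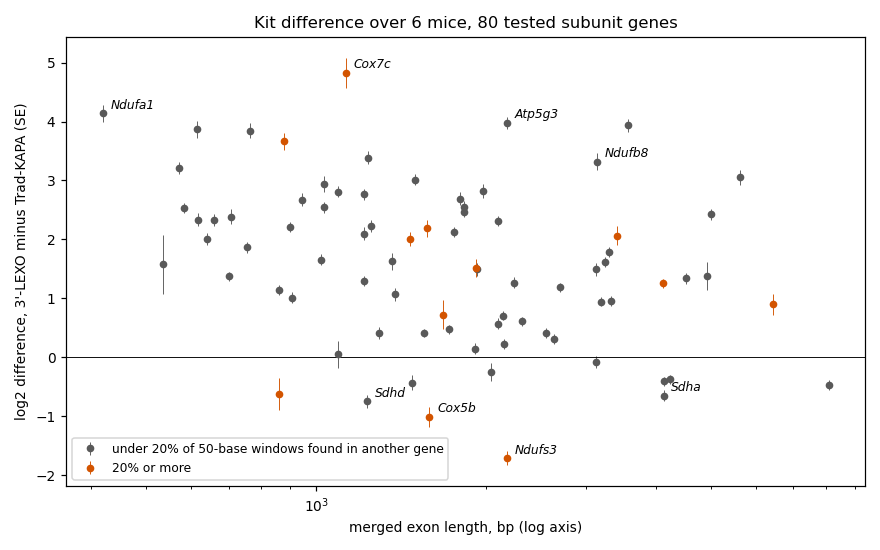
Difference between the kits over 6 mice (3’-LEXO minus Trad-KAPA, log2 CPM, with SE) against merged exon length on a log axis for 80 genes. Orange marks the 12 genes with 20% or more of their 50-base windows also found at another locus, and the points fall with length from a median of 2.33 under 1000 bases to 0.96 at 2000 and over.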

How the data were processed

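RNA-seq libraries of 6 livers were made with the Trad-KAPA and 3’-LEXO kits. The authors mapped 50 bp single-end reads with STAR 2.5.3a to GRCm38 and deposited raw counts of reads mapped uniquely to exons, neither normalized nor subsampled. The counting program, annotation and strand setting were not given in the sources used here, so reads of overlapping genes (29 of the 84 genes share exon bases with another gene) cannot be assigned with certainty.

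Gene symbols, positions, lengths and types were taken from GENCODE M21, which held 26949 identifiers. Of the genes that match the symbol pattern, 3 protein-coding ones were not analysed here, and 12 that are not protein-coding were left out. Within each kit, edgeR 4.0.16 (R 4.3.3) was fitted to all genes that passed filterByExpr, with TMM factors and the quasi-likelihood test, and Benjamini-Hochberg adjusted p under 0.05 was called. SE was the log2 change divided by the root of F. CPM used TMM-scaled totals. The interaction and the kit difference were fitted over 12 libraries. The fits were tested on simulated counts. Replicates are separate mice, and libraries of 1 group differed by more than counting noise (chi-square per degree of freedom 5.97 to 59.8). The same number names the same mouse in both kits, since both libraries came from 1 RNA per the study's methods: deviations from group means correlated with r from 0.435 to 0.765 over 10326 genes, but iron-loaded mice 2 and 3 also correlated across their numbers (0.573 and 0.509) and are not told apart by this check. Numbers are not shared across diets.

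The symbol rule uses no measured value, but it, the lists and the tests were chosen with earlier results of these data known. Genes were named when they hold an iron-sulfur cluster or heme, were called in both kits, had 1 of the 5 largest falls or rises in 1 kit, were the highest or lowest of a complex, are tissue isoforms, or were among the 3 highest in a kit. DESeq2 1.42.0, its size factors, no filter, 10000000 reads per library, replicate blocks and leaving out each library were alternatives. Library totals without TMM were added after seeing the data. Not every gene called is named, since an item is not reported here. Python 3.11.15 was used for tables.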

Additional observations from a re-analysis of the deposited data

Results flagged for a closer look

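Ndufb1-ps matches the symbol pattern but is annotated as a noncoding RNA, so it was left out of the 84 genes. It had 10461 reads over the 12 libraries, with 271 to 356 in each Trad-KAPA library and 1030 to 1881 in each 3’-LEXO library, above the floor of 3 counts in each. Its log2 change with the diet was -0.27 by Trad-KAPA and -0.19 by 3’-LEXO (edgeR adjusted p = 0.150 and 0.517).

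Sdhd drew attention because its 3 iron-loaded mice lay below all controls in Trad-KAPA and above all controls in 3’-LEXO. The difference between the kits in the diet effect was 0.71 on the log2 scale, with an unadjusted p of 0.00685 and an edgeR adjusted p of 1.0.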

How the results depend on the processing

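The median diet effect of these genes stayed below 0 in each fit run in both kits, and moved by less than the spread between replicates. The count of called genes did not. In Trad-KAPA it was 20, and it was 13 without TMM and 13 with a replicate block, and ran from 1 to 22 when 1 library was left out. In 3’-LEXO it was 2, and it was 8 by DESeq2, 10 without the filter on low counts (2 of them higher), 1 without TMM, 0 with a replicate block, and 0 to 2 when 1 library was left out. The replicate number does not pair mice across diets (r from -0.163 to 0.0984 for same-numbered mice), so the block results are given for completeness. For the interaction and the kit difference, where the block is the mouse, the counts were 0 and 77 against 0 and 75. In fits that left out 1 library, the counts ran from 73 to 77 for the kit difference and were 0 for the interaction. The median level per length over 6 libraries was 35.0 RPKM and 47.2 with the longest transcript as length, by construction of the shorter length, and 33.7 to 36.7 when 1 library was left out. In the latter fits the median diet effect was -0.37 to -0.25 (Trad-KAPA) and -0.25 to -0.19 (3’-LEXO).

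Among the named genes, signs turned for those below, none of them called in that kit in the fit reported. In 3’-LEXO these were, without TMM, Atp5a1 (0.034), Ndufa4l2 (0.016), Cox5b (0.0055) and Ndufa1 (0.067), without the filter Uqcrfs1 (-0.021) and Cox7a2 (-0.012), and with a replicate block Uqcrfs1 (-0.021). When 1 library was left out, ranges that crossed 0 were, in Trad-KAPA, -0.041 to 0.35 for Cox7c, -0.38 to 0.13 for Atp5g1 and -0.17 to 0.015 for Cox7a2. In 3’-LEXO they were -0.28 to 0.19 for Uqcrfs1, -0.17 to 0.080 for Atp5a1, -0.16 to 0.43 for Atp5g1, -0.059 to 0.20 for Cox6b1, -0.10 to 0.088 for Cox7a2, -0.20 to 0.023 for Cox8a, -0.35 to 0.095 for Ndufa4l2, -0.31 to 0.094 for Ndufs3, -0.47 to 0.20 for Cox5b and -0.15 to 0.15 for Ndufa1. The cause was not tested.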
